A study of Mus musculus with 8 samples.

Results

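The genes described here are the immunoglobulin genes of the mouse: every row of the deposited count table annotated as an immunoglobulin constant, variable, joining or diversity gene. They numbered 264 of 55880 genes, with 13 constant (C), 218 variable (V), 14 joining (J) and 19 diversity (D) genes. The heavy chain locus Igh on chromosome 12 held 144 of them, the kappa light chain locus Igk on chromosome 6 held 108, and the lambda light chain locus Igl on chromosome 16 held 12. A count was present in at least 1 library for 194 genes, and 70 were at 0 throughout.

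The libraries were made from total RNA of small intestinal crypts, pockets of the epithelium where its stem cells sit, taken from C57BL/6N mice. By label, 4 libraries came from miR-29ab1-/- mice, which lack the gene pair for miR-29a and miR-29b-1, and 4 from WT mice. These labels are called KO and WT below, and the series title places all of them before irradiation. The sources used here do not give age, sex, the extent of the deletion, any Cre driver or the number of mice behind a library. The labels name no litter or batch, so p-values measure the spread between these 8 libraries, which may be technical in part. Total counts were 13879472 to 17368666 per library. The Mir29b-1 hairpin, the targeted gene, had 2, 5, 7 and 3 counts in the KO-labelled libraries (replicates 1 to 4) and 0 in each WT-labelled library, and Mir29a had 0 in all 8. Counts of a targeted hairpin in the KO group go against the labels at face value, so every direction below is a direction between labels.

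An antibody is built from heavy and light chains. In each B cell a V, a J and, for heavy chains, a D segment are joined into a single exon, which is spliced to a constant segment that sets the class: Ighm and Ighd for the IgM and IgD of naive B cells, and Ighg, Ighe or Igha after class switching. Plasma cells, the antibody-secreting descendants of B cells, fill the connective tissue around intestinal crypts and mostly make IgA there. Jchain ties IgA into dimers, and the epithelial receptor Pigr carries these into the gut lumen. The crypt epithelium itself belongs to another lineage and takes up IgA rather than making it.

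Sequences of the segments show what the counts refer to; all are GENCODE M21 transcripts on GRCm38, printed 5′ to 3′ on the strand of the gene. All 264 genes had the same coordinates there as in the deposited table. The first 90 bases of the constant segments Igha (ENSMUSG00000095079, chr12:113254830-113260236, minus strand) and Igkc (ENSMUSG00000076609, chr6:70726435-70726966, plus strand) are shown because these genes held the most counts, 4117 and 3240 over all libraries.
Igha: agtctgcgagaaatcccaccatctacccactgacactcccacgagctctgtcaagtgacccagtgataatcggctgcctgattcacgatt
Igkc: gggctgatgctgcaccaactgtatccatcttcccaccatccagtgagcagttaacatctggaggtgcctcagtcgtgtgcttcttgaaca
The joining segments that precede them are short, which bears on how few counts they drew. Capitals mark TGGGG in heavy and TTCGG in light joining segments, the start of the Trp-Gly or Phe-Gly motif that follows the antigen-binding loop. TGGGG was found in 4 of 4 Ighj segments and TTCGG in 4 of 5 Igkj and 4 of 5 Iglj segments, searched on the transcript strand.
Ighj3: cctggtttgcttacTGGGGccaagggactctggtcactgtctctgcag
Ighj4: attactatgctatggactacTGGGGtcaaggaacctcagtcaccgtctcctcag
Igkj3: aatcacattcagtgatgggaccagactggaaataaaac
Igkj4: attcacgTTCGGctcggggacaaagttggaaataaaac
Igkj5: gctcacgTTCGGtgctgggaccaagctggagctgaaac
Igkj3, in which TTCGG was not found, is known as a nonfunctional joining segment in mice. It is shown because its values did not overlap between the groups once scaled by library size, though its counts tied at the edge.
The last 60 bases of leading V segments follow, with capitals on the codon pair Tyr-Cys or Phe-Cys whose cysteine stands at the start of the antigen-binding loop.
Igkv1-110: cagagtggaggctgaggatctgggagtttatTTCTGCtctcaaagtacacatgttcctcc
Igkv1-117: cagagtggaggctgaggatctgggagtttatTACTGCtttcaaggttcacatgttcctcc
Iglv1: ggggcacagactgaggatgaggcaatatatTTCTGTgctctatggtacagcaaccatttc
Ighv9-3: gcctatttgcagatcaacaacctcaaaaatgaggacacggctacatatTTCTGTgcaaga
Ighv1-53: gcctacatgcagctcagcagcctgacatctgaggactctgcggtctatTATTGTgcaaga
Ighv1-55: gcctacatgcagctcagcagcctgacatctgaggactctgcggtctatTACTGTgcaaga
The codon pair was searched on the transcript strand in any frame, as the tyrosine codon TAT or TAC, or the phenylalanine codon TTT or TTC, directly followed by the cysteine codon TGT or TGC. It lay in the last 60 bases of 211 of 218 V segments (96.8%), against 18.5% of 58781 protein-coding transcripts. Those transcripts were read at their very end, which can be untranslated, so 18.5% is no rate for coding sequence. Ighv1-53 and Ighv1-55 differed at a single printed base, T51C, counted from 1 at the first printed base with the base of Ighv1-53 first. Such likeness limits how reads can be told apart: of the 173 V genes with a count, 23 shared over 50% of their windows of 50 bases with another transcript, and the median share was 22.4%. Igkv1-110 was among them at 50.9%, with Igkv1-117 as its closest partner, and Ighv1-53 stood at 57.6%. No constant gene with a count shared over 50%. The sources used here do not say how reads with several matches were counted, so counts of single V genes are uncertain and sums are less so.

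Summed immunoglobulin transcripts were lower by mean in the KO-labelled libraries, but 1 WT-labelled library carried much of that difference. Summed counts were 827, 1427, 824 and 998 in the KO-labelled libraries (replicates 1 to 4), against 657, 6520, 1933 and 2036 in the WT-labelled libraries. As CPM, a scaling of counts by TMM library sizes that brings every library to a common total, the sums were 60.7, 92.6, 48.5 and 78.0 in KO and 40.2, 408, 113 and 137 in WT. WT replicate 2 was far above the rest, WT replicate 1 was the lowest of all 8, and the groups overlapped. The means were 69.9 ± 19.4 CPM in KO and 174 ± 161 CPM in WT (SD, n = 4 each), a log2 ratio of means of -1.32. Without WT replicate 2 the WT mean was 96.6 ± 50.3 CPM and the log2 ratio was -0.47. Without WT replicate 1 instead, the log2 ratio was -1.65. In bulk RNA, fewer cells of a type and less RNA per cell cannot be told apart. Immunoglobulin counts made up 0.00671 ± 0.00153% of all counts in KO and 0.0174 ± 0.0154% in WT.

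WT replicate 2 had the highest CPM of the 8 libraries in 128 of the 194 genes with a count and in 11 of the 12 constant genes with a count. Mean CPM was lower in KO than in WT for 160 of the 194 genes and higher for 34. With that library left out it was lower for 105 and higher for 76. Constant genes held 11801 of the 15222 immunoglobulin counts, V genes 3326 and J genes 95. V genes took 21.5 ± 1.88% of immunoglobulin counts in KO and 19.7 ± 3.46% in WT (SD, n = 4 each). The 19 D genes, which are 10 to 29 bases long, had 0 counts in every library, a count that allows up to 3 per library.

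No immunoglobulin gene passed the test across all genes. Of the 264 genes, 11 passed the filter on low counts: 9 constant genes and the V genes Igkv1-110 and Iglv1. None was past an adjusted p of 0.05 in edgeR's quasi-likelihood test (smallest adjusted p = 0.994), where 0.0201% of 14897 tested genes were. At an unadjusted p under 0.05, 0 were higher and 3 were lower in KO, against 1.87% of all tested genes higher and 0.832% lower. The 3 were Igha, Ighg2b and Igkc. The fitted log2 fold change was below 0 for all 11, with a median of -1.15, against a median of 0.011 over all tested genes, of which 7156 were below 0 and 7741 above. Without WT replicate 2, 8 of 11 were below 0, the median was -0.49 and 0 had an unadjusted p under 0.05. Leaving out WT replicate 1 instead, 13 of 13 were below 0 and the median was -1.56. In that fit 9 had an unadjusted p under 0.05 and none passed the threshold (smallest adjusted p = 0.712, edgeR). The share of all genes under 0.05 in that fit is not given here. DESeq2 gave an adjusted p to 22 immunoglobulin genes and called none, with 0.15% of 16047 genes called. It put 6 of them at an unadjusted p under 0.05, all lower in KO, against 1.05% of all genes. limma-voom called none of 11, with 0.0134% of 14897 genes called. It put 1 at an unadjusted p under 0.05, lower in KO, against 0.745% of all genes. In edgeR without a filter, 24 of 194 had an unadjusted p under 0.05, all lower in KO, against 1.02% of 28883 genes. For none of the 11 did the values of KO and WT fail to overlap, against 1.53% of all tested genes.

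**Figure D1:**
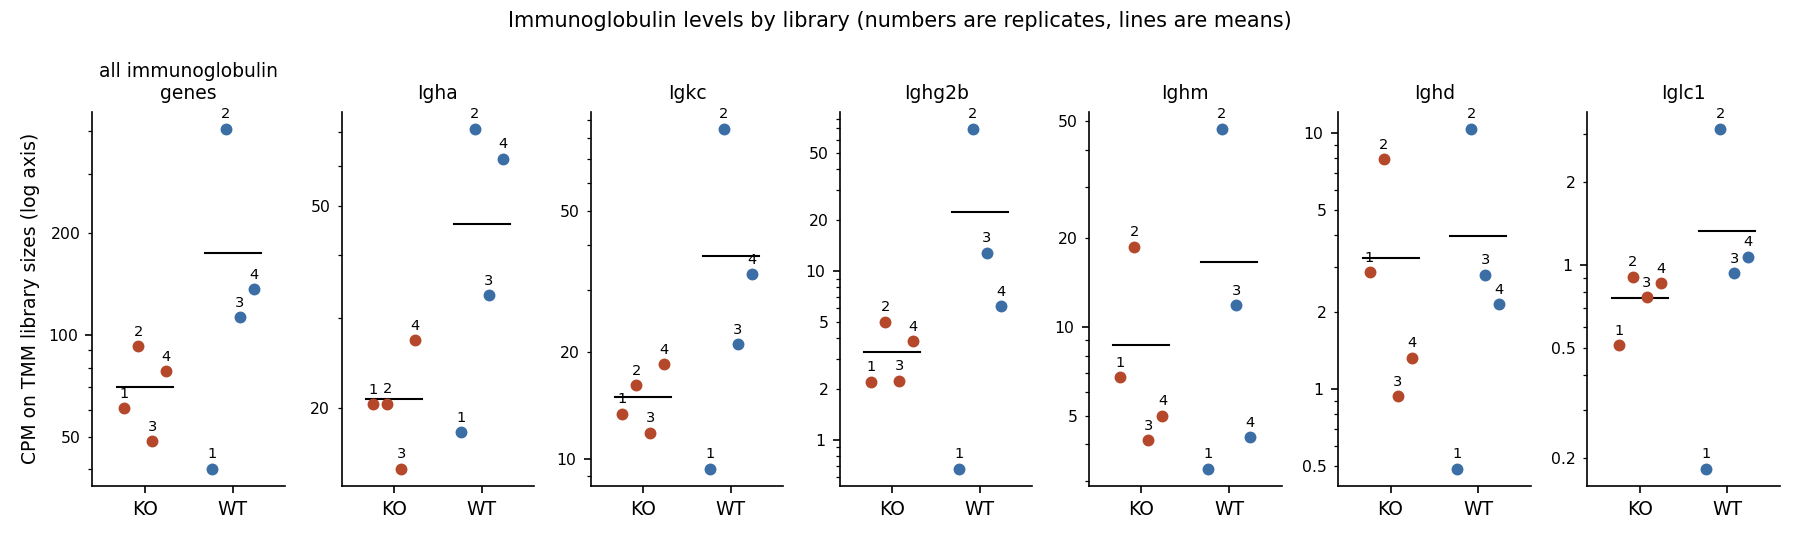
CPM on TMM library sizes (log axis, own range per panel) of all immunoglobulin genes summed and of 6 constant genes, KO-labelled libraries left and WT-labelled right, with points for libraries, numbers for replicates and lines for the arithmetic means of 4. WT replicate 2 is the highest point in every panel and WT replicate 1 the lowest in all but Igha, where KO replicate 3 is lower.

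Igha, the IgA constant gene, had the smallest p of the immunoglobulin genes. It had 20.3, 20.4, 15.2 and 27.2 CPM in the KO-labelled libraries, against 17.9, 71.0, 33.3 and 61.9 CPM in the WT-labelled libraries. WT replicates 2, 3 and 4 lay above every KO library and WT replicate 1 lay among them. The means were 20.8 ± 4.93 CPM in KO and 46.0 ± 24.7 CPM in WT (SD, n = 4 each). KO over WT, the edgeR log2 fold change was -1.15, its SE 0.39 and its adjusted p = 0.994; it was -0.86 without WT replicate 2. The authors' deposited table gives Igha a log2 fold change of -1.15 and a p of 0.00380, with no immunoglobulin gene at an adjusted p under 0.05 among the 178 that have a p.

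Among the IgG genes, Ighg2b, the constant gene of IgG2b, held the most counts. Ighg2b (chr12:113302965-113307933, minus strand) had 2.20, 4.998, 2.24 and 3.83 CPM in KO, against 0.673, 69.9, 12.8 and 6.18 CPM in WT. In WT replicate 2 its 1117 counts came close to the 1134 of Igha, and the WT libraries spread on both sides of the KO libraries. For Ighg2b the edgeR log2 fold change was -2.75, SE 1.07 (adjusted p = 0.994), and -0.99 without WT replicate 2. Ighg2c and Ighg1, constant genes of IgG2c and IgG1, averaged 0.661 ± 0.372 and 1.05 ± 0.873 CPM in KO, against 1.77 ± 1.98 and 2.10 ± 1.61 CPM in WT (SD, n = 4 each). Their log2 fold changes were -1.42 and -1.01 (adjusted p = 0.994 each, edgeR), and -0.28 and -0.49 without WT replicate 2. Ighg3, which was not tested, had 4, 12, 6 and 3 counts in KO, against 4, 81, 34 and 3 in WT. Ighe, the IgE gene, had 2 counts in KO and 1 in WT.

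Ighm and Ighd, the constant genes of the unswitched classes, were high in WT replicate 2 and in KO replicate 2. Ighm (chr12:113418558-113422730, minus strand) had 6.75, 18.8, 4.12 and 5.003 CPM in KO, against 3.30, 47.3, 11.8 and 4.23 CPM in WT. Ighd (chr12:113406604-113416324, minus strand) had 2.86, 7.92, 0.941 and 1.33 CPM in KO, against 0.489, 10.5, 2.80 and 2.15 CPM in WT. Replicate 2 stood highest within each group for both genes, and the groups overlapped. The log2 fold changes were -0.94 with an SE of 0.85 for Ighm and -0.28 with an SE of 0.89 for Ighd (edgeR, adjusted p = 0.994 each). Both turned positive without WT replicate 2, at 0.42 and 0.85.

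Among light chains, the kappa constant gene Igkc far exceeded the lambda constant genes. Igkc had 13.4, 16.2, 11.9 and 18.5 CPM in KO, against 9.42, 85.1, 21.1 and 33.2 CPM in WT. WT replicates 2, 3 and 4 lay above all KO libraries and WT replicate 1 lay below them. The means were 15.0 ± 2.94 CPM in KO and 37.2 ± 33.4 CPM in WT (SD, n = 4 each). The log2 fold change in edgeR was -1.31, SE 0.56 (adjusted p = 0.994), and -0.50 without WT replicate 2. Iglc1 and Iglc2 averaged 0.762 ± 0.176 and 0.562 ± 0.504 CPM in KO, against 1.33 ± 1.26 and 0.991 ± 0.904 CPM in WT. Their log2 fold changes were -0.79 and -0.81 (adjusted p = 0.994 each, edgeR), and 0.066 and -0.03 without WT replicate 2. Iglc3 had 20 counts in KO and 28 in WT, and Iglc4 had 0 in all libraries.

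Per kilobase of annotated gene length, Igkc stood highest, at 28.2 CPM per kb in KO and 69.9 in WT. Igha followed with 7.78 CPM per kb in KO and 17.3 in WT, then Ighm with 4.59 and 8.83 in KO and WT. Ighg2b had 1.24 CPM per kb in KO and 8.36 in WT, Ighd 1.72 in KO and 2.09 in WT, and Iglc1 1.68 in KO and 2.93 in WT. The gaps between Ighg2b, Ighd and Iglc1 in KO were within the spread between libraries. All these values depend on the length used. It was 2668 bases for Igha, whereas the Igha transcript printed from above has 1100. For Igkc both lengths were 532 bases, so the gap between Igkc and Igha would be smaller by transcript length.

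Igha held more counts than any other heavy chain constant gene in all 8 libraries. The Igha share was 61.4, 37.3, 63.5 and 66.3% in the KO-labelled libraries, with 95% Clopper-Pearson intervals of 56.8 to 65.9, 34.0 to 40.7, 58.7 to 68.2 and 62.1 to 70.3%. In the WT-labelled libraries it was 77.3, 33.4, 50.1 and 80.2%, with intervals of 72.8 to 81.4, 31.8 to 35.0, 47.1 to 53.0 and 77.8 to 82.4%. These intervals cover counting error only, and the libraries differed from each other by far more than that. The lowest shares were those of replicate 2 in each group. The means were 57.1 ± 13.4% in KO and 60.2 ± 22.4% in WT (SD, n = 4 each). The difference of -3.11 percentage points did not pass an exact two-sided permutation test (p = 0.857, where the 70 arrangements allow 0.0286 at least). That p does not show the shares to be alike, since leaving out single libraries moved the difference between -12.1 and 3.53 points. Set against class-switched counts alone, a choice made after the data were seen, the Igha share was 79.6 ± 5.67% in KO and 72.5 ± 21.6% in WT.

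The 2 libraries with a low Igha share differed in what took its place. Ighm and Ighd together held 48.8% (45.4 to 52.2%) of heavy constant counts in KO replicate 2 and 27.2% (25.7 to 28.7%) in WT replicate 2. The IgG genes held 13.8% (11.5 to 16.3%) in KO replicate 2 and 39.4% (37.8 to 41.1%) in WT replicate 2. Across groups, Ighm and Ighd took 28.6 ± 14.6% in KO and 18.5 ± 8.10% in WT, and the IgG genes took 14.2 ± 3.62% in KO and 21.2 ± 15.3% in WT. Both ranges overlapped between the groups.

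**Figure D2:**
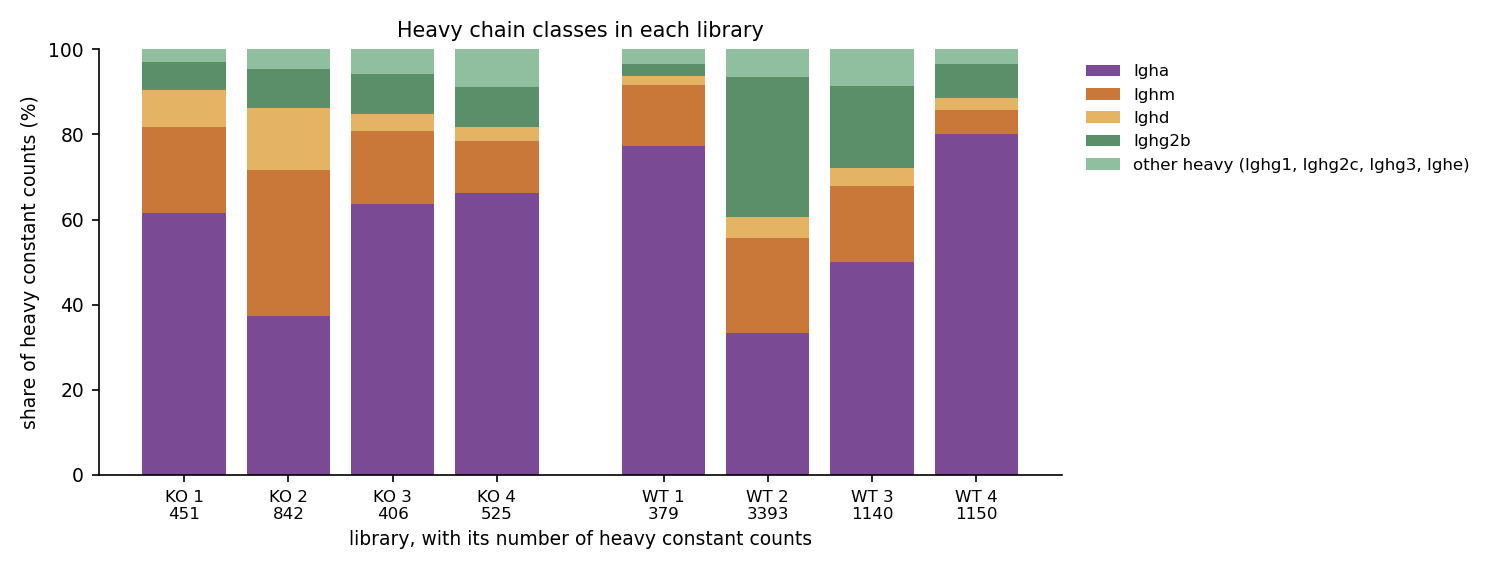
Share of heavy chain constant counts (percent, bars to 100) taken by Igha, Ighm, Ighd, Ighg2b and the other heavy genes in each library, KO-labelled left and WT-labelled right, with the number of counts under each bar. Igha takes 37.3% in KO replicate 2 and 33.4% in WT replicate 2 and 50.1% or more elsewhere.

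Kappa chains made up most light constant counts in every library. The Igkc share was 88.8, 85.6, 92.2 and 93.7% in KO, from 206 to 291 light constant counts. In WT it was 96.2, 92.5, 90.9 and 95.2%, from 160 to 1470 counts. The 95% Clopper-Pearson intervals spanned 81.0 to 96.3% over the KO libraries and 87.7 to 98.6% over the WT libraries. The mean was 90.1 ± 3.63% in KO and 93.7 ± 2.43% in WT, a difference of -3.64 points (exact two-sided permutation test, p = 0.143). The groups overlapped. V counts gave a like picture, with Igkv genes at 92.5 ± 2.41% of light V counts in KO and 92.7 ± 4.01% in WT (SD, n = 4 each).

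V gene counts were spread over many genes in every library, with no dominant gene. There were 169, 280, 197 and 219 V counts in KO, against 112, 1611, 376 and 362 in WT. They fell on 73, 96, 81 and 79 V genes in KO and on 56, 149, 103 and 103 in WT. The gene in front took 15 counts in KO replicate 1 (Igkv1-110), 13 in replicate 2 (Iglv1), 9 in replicate 3 (Ighv9-3) and 9 in replicate 4 (Igkv12-46). In WT it took 8 counts in replicate 1 (Igkv17-121), 70 in replicate 2 (Igkv1-117), and 22 in each of replicates 3 and 4 (Igkv1-110). That is 5.55 ± 2.23% of V counts in KO and 5.85 ± 1.15% in WT. The 10 leading V genes of a library took 33.1 ± 3.18% in KO and 34.3 ± 7.65% in WT. A library with more V counts also showed more V genes, so the numbers of genes detected cannot be set side by side without a common depth.

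The effective number of V genes, the exponential of the Shannon entropy, is the number of equally used genes that would give the same evenness. It was 54.5, 72.0, 64.1 and 62.9 in KO, against 43.1, 92.5, 73.7 and 72.2 in WT. Within WT, libraries with more V counts had the higher effective number throughout. The mean was 63.4 ± 7.15 in KO and 70.4 ± 20.4 in WT, a difference of -7.00 (exact two-sided permutation test, p = 0.6). Brought to the lowest depth, 112 V counts per library, the expected number of V genes was 58.8, 62.9, 61.5 and 59.5 in KO, against 56.0, 63.3, 61.6 and 61.2 in WT. These values lay close together, with means of 60.7 ± 1.88 in KO and 60.5 ± 3.16 in WT, a difference of 0.124 (exact two-sided permutation test, p = 0.971). With 112 counts per library, a difference of a few V genes between the groups was not detectable beyond the spread between libraries.

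**Figure D3:**
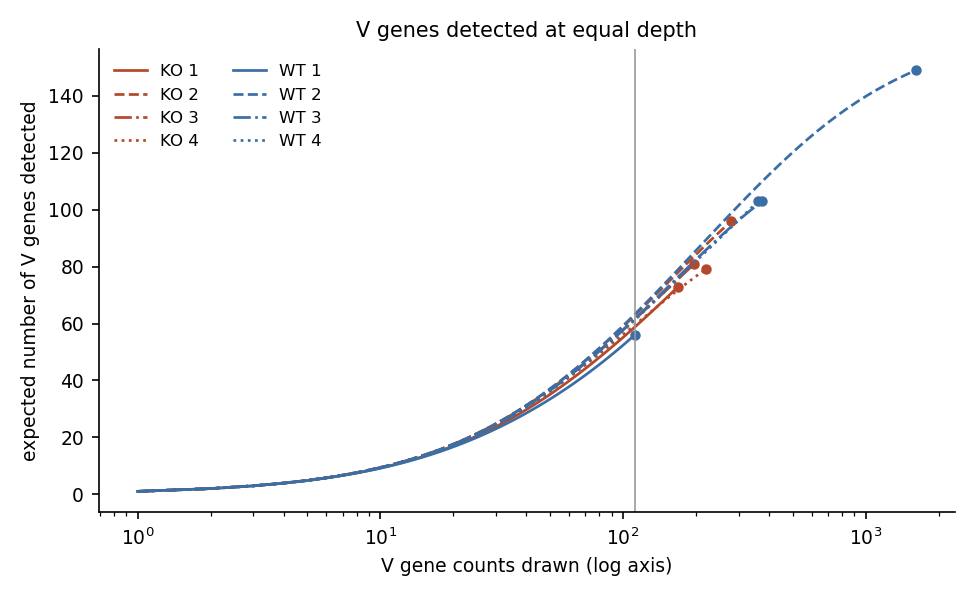
Expected number of V genes detected (vertical axis) when each library is thinned to a given number of V counts (horizontal axis, log scale), for the KO-labelled and WT-labelled libraries, with a vertical line at 112 counts, the depth of WT replicate 1. The 8 curves lie between 56.0 and 63.3 genes at that depth, and WT replicate 2 reaches 149 genes at its 1611 counts.

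Most of the leading Igh and Igk V genes ranked high in 1 library only, but these ranks rested on few counts. Of the V genes with a count, 15 were detected in all 8 libraries and 28 in a single library, 13 of them in WT replicate 2 alone. Any KO library detected 137 V genes and any WT library 163, or 139 without WT replicate 2. Among the 3 leading genes of each library, Igh yielded 15 different V genes, of which 9 led in 1 library only. Igk yielded 12, of which 8 led in 1 library only. Igl has just 3 V genes in mice of this annotation, and Iglv1 led in all 8 libraries.

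Igkv1-110 (chr6:68270485-68271267, plus strand) was among the 3 leading Igk genes in 3 KO and 3 WT libraries, with 15, 10, 7 and 7 counts in KO against 5, 58, 22 and 22 in WT. The edgeR log2 fold change of Igkv1-110 was -1.30, SE 0.65 (adjusted p = 0.994). Iglv1 (chr16:19085017-19085500, minus strand) had 6, 13, 5 and 5 counts in KO against 1, 59, 14 and 19 in WT, and stood at -1.55, SE 0.86, on the log2 scale (edgeR, adjusted p = 0.994). Both were high in WT replicate 2 and lowest in WT replicate 1. Igkv1-117 had 3, 12, 6 and 7 counts in KO against 6, 70, 10 and 9 in WT. Igkv12-46 was more uneven, with 2, 3, 3 and 9 counts in KO against 0, 54, 5 and 1 in WT. In the heavy locus, Ighv9-3 had 6, 2, 9 and 2 counts in KO against 1, 34, 7 and 13 in WT, and Ighv1-53 had 4, 1, 5 and 3 in KO against 0, 36, 12 and 6 in WT. Ighv4-1 was seen in few libraries, with 6, 0, 0 and 0 counts in KO against 0, 37, 0 and 3 in WT. Ighv1-15 led the other way, with 14 counts in KO and 3 in WT. The other leading genes held 2 to 28 counts in KO and 8 to 53 in WT, except Igkv9-124 with 1 in KO and 26 in WT.

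**Figure D4:**
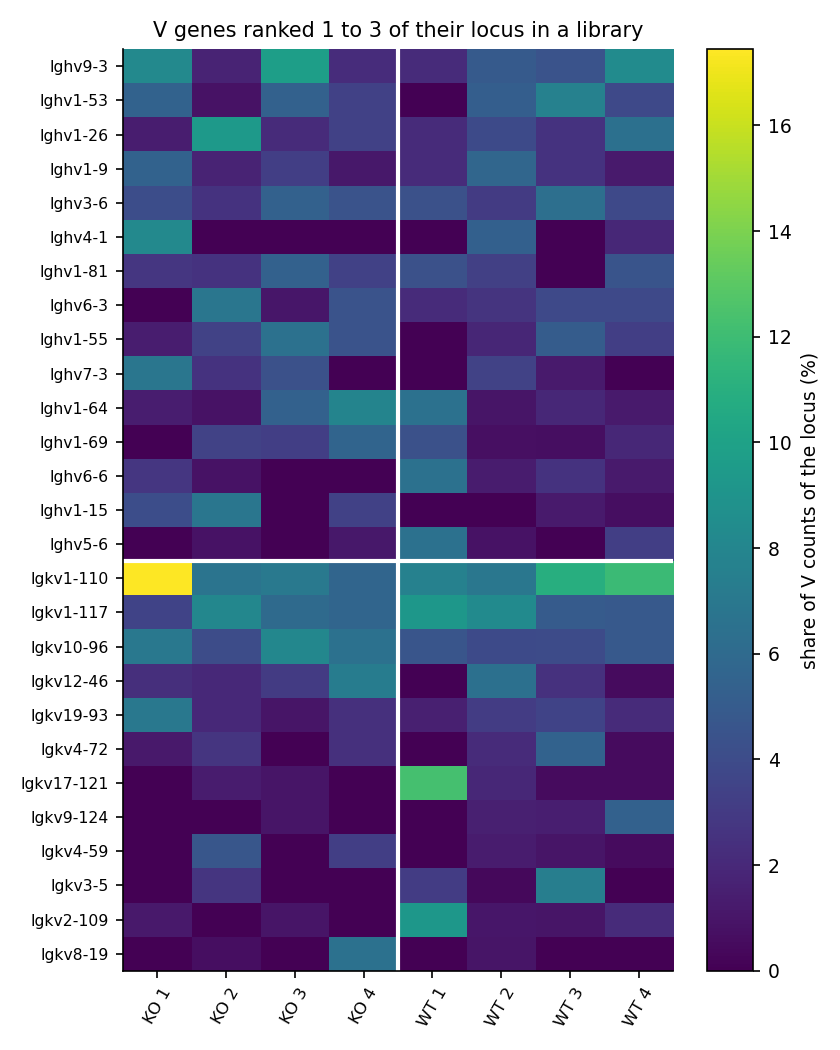
Share of the V counts of its locus (percent, colour scale) taken by each Igh (above) and Igk (below) V gene that ranked among the 3 leading genes of its locus in a library, with KO-labelled libraries left of WT-labelled ones. Of these, 9 of 15 Igh genes and 8 of 12 Igk genes lead in 1 library only, with ties broken by gene name and many ranks resting on few counts.

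V families are groups of V genes alike in sequence, and their shares were compared without a test. Ighv1, the largest heavy family with 53 genes here, took 54.2 ± 9.65% of heavy V counts in KO and 52.2 ± 3.56% in WT. Igkv1 took 20.1 ± 5.02% of kappa V counts in KO and 21.8 ± 2.93% in WT, and Igkv4, with 26 genes, took 12.02 ± 4.38% in KO and 14.1 ± 7.78% in WT (SD, n = 4 each). Shares of smaller families were farther apart by mean, as for Igkv17 with 2.79 ± 0.49% in KO and 7.92 ± 8.19% in WT, or Igkv2 with 0.75 ± 0.52% in KO and 4.01 ± 4.56% in WT. Igkv9 took 1.63 ± 1.46% in KO and 4.03 ± 2.27% in WT, and Iglv2 took 15.2 ± 12.3% of lambda V counts in KO and 6.07 ± 4.43% in WT. The Iglv2 shares rested on 3, 0, 1 and 1 counts in KO and 0, 8, 1 and 2 in WT. Lambda V counts numbered 6 to 14 per library in KO and 1 to 83 in WT. For none of the 39 families, 7 of them without a count, did the libraries of KO and WT fail to overlap.

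Joining genes had 1, 14, 2 and 1 counts in KO, against 6, 46, 20 and 5 in WT. Igkj5 had 5 counts in KO and 16 in WT, Ighj3 had 1 in KO and 14 in WT, Ighj4 had 4 in KO and 10 in WT, and Igkj4 had 1 in KO and 10 in WT. For Igkj3 the libraries did not overlap as CPM, with 0, 1, 0 and 0 counts in KO against 2, 7, 5 and 1 in WT. KO replicate 2 and WT replicate 4 tied at 1 count, 0.0649 and 0.0671 CPM, so library size alone separated them. The other genes of the 194 whose libraries did not overlap were Igkv17-127, Igkv6-15, Igkv2-109 and Ighv1-76, all lower in KO. Of the 13986 genes of the whole table that had a count but were not tested, 0.601% did not overlap with KO lower. These 5 are named because of their values, and all were too low to be tested. Igkv17-127 had 2, 3, 2 and 3 counts in KO against 5, 34, 5 and 4 in WT. Igkv6-15 had 3, 5, 3 and 1 in KO against 6, 14, 8 and 8 in WT. Ighv1-76 had 0 in every KO library, which allows up to 3 per library, against 1, 5, 1 and 6 in WT.

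The authors' deposited table lists 19 immunoglobulin genes with an unadjusted p under 0.05, all lower in KO, among 178 that have a p. Of all 26613 genes with a p there, 0.842% were under 0.05 and lower in KO. The authors' heat map table of 670 genes holds 19 immunoglobulin genes. Besides Igha, Igkc and Ighg2b, 16 of the 19 in the authors' deposited table were not tested here after the filter on low counts.

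Markers of plasma cells were checked, since plasma cells are the usual source of gut immunoglobulin. Jchain had 4.84, 4.35, 3.41 and 4.46 CPM in KO, against 3.49, 25.9, 7.06 and 12.1 CPM in WT, the same order of WT libraries as Igha. Jchain stood at -1.51, SE 0.53, on the log2 scale (edgeR, adjusted p = 0.994), and at -0.82 without WT replicate 2. Mzb1, a chaperone factor of antibody-secreting cells, had 0, 3, 0 and 2 counts in KO against 1, 5, 3 and 1 in WT. Tnfrsf17, the survival receptor BCMA of plasma cells, had 1 count in KO and 2 in WT. Mzb1 and Tnfrsf17 were thus at or near 0, whereas Jchain had 57 to 414 counts per library. Of the 16 plasma cell genes in the table, 13 were tested, with 6 below 0, 7 above, a median of 0.035 and none past the threshold. Their summed level was 729 to 847 CPM in KO and 713 to 847 CPM in WT, most of it from Txndc5, Xbp1 and Sdc1, which epithelium also expresses. Tent5c, a poly(A) polymerase that stabilises immunoglobulin mRNA in plasma cells, had a log2 fold change of 0.51 with an SE of 0.26 (edgeR, adjusted p = 0.994). It had 91.0, 95.2, 73.7 and 40.4 CPM in KO, against 60.7, 41.0, 61.1 and 48.3 CPM in WT. Within WT it was thus lowest in replicate 2, where summed immunoglobulin was highest. Which cells its counts came from was not tested.

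All 13 B cell markers had a count in every library, though some had very few. In WT replicate 1, Fcer2a, Fcmr and Fcrla had 1 count each and Blk had 2. The share of immunoglobulin counts that came from plasma cells or from B cells was not tested. Ms4a1, the B cell surface protein CD20, had 2.13, 5.19, 1.06 and 1.41 CPM in KO, against 0.978, 9.01, 2.10 and 1.68 CPM in WT. Replicate 2 was again the highest within each group. The 13 genes summed to 25.3 to 92.6 CPM in KO and 14.0 to 133 CPM in WT, with WT replicate 2 the highest for 12 of them and KO replicate 2 the second highest for 11. Spib, which M cells of the epithelium also express, held much of that sum, and the other 12 genes summed to 8.59 to 53.8 CPM in KO and 6.11 to 91.2 CPM in WT. Of the 13, 12 had a fold change below 0, with a median of -0.45, and none was past the threshold. The smallest p of the list belonged to Cd79b, a part of the B cell receptor, and Spib, a B-lineage transcription factor, with log2 fold changes of -0.87 and -0.45 (edgeR, adjusted p = 0.994 each). Ms4a1 stood at -0.49 (edgeR, adjusted p = 0.994), and turned positive without WT replicate 2, at 0.62.

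Across the 8 libraries Igha was set beside Jchain, and Ighm beside the B cell gene Cd79a. These pairs and their crossed counterparts, 4 in all, were chosen after values had been seen, so correlations are given as a description with no test. They use log2(CPM + 0.5), and both values of a point share a library size. Between Jchain and Igha, Pearson's r was 0.952 and Spearman's rho was 0.929, and r was 0.888 without WT replicates 2 and 4. Between Cd79a and Ighm, r was 0.966 and rho was 0.976, and r was 0.917 without replicate 2 of each group. For the crossed pair of Cd79a and Igha, r was 0.330 and rho was 0.476, with r at 0.0139 without replicate 2 of each group. For Jchain and Ighm, r was 0.659 and rho was 0.595, with r at 0.604 without WT replicates 2 and 4. Groups of 4 libraries are too small for a value within KO or WT.

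**Figure D5:**
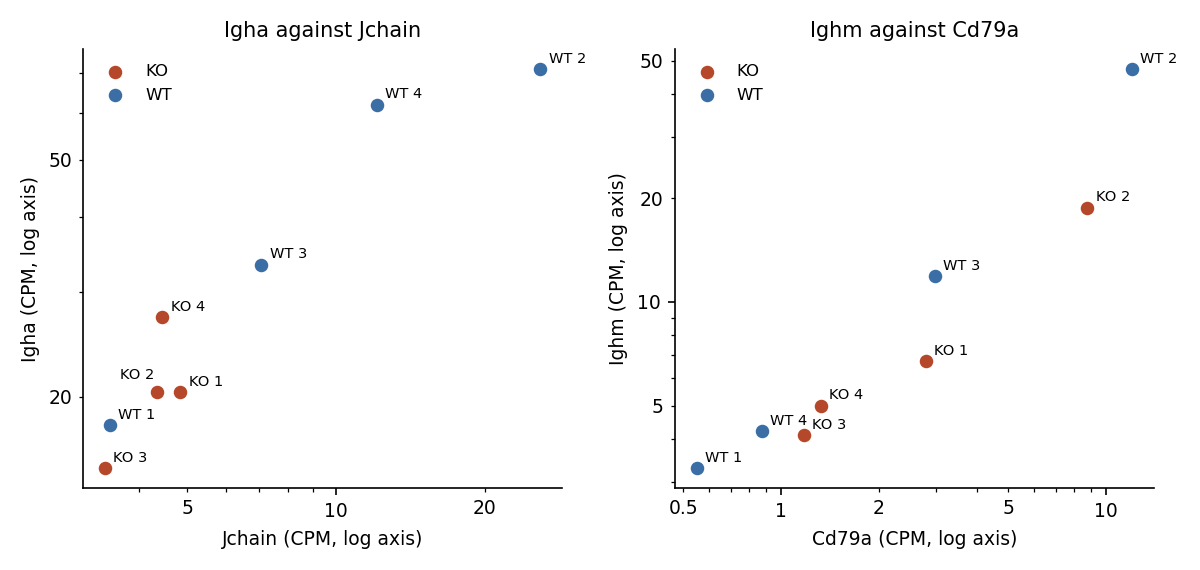
Igha against Jchain (left) and Ighm against Cd79a (right), in CPM on log axes, with a point per library, KO-labelled and WT-labelled. WT replicate 2 is the highest point in both panels, and KO replicate 2 is second in the Cd79a panel but among the low libraries in the Jchain panel.

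Genes of B cell maturation and IgA handling gave no call. The 9 germinal centre and class switch genes included 6 tested ones, 4 below 0 and 2 above, with a median of -0.10, led by Mki67, a cell cycle marker of crypt epithelium too, at -0.40 and Bcl6, the germinal centre repressor, at 0.30. Pigr, the epithelial IgA receptor, averaged 4462 ± 474 CPM in KO and 5011 ± 938 CPM in WT, a log2 fold change of -0.17 with an SE of 0.25 (edgeR, adjusted p = 0.994). Of the 5 IgA transport genes, 3 were below 0 and 2 above, with Rab25, a recycling GTPase of epithelium, at -0.15. Among 11 genes of plasma cell homing and survival, 8 were tested, 4 each way, with a median of -0.10. Tnfsf13b, the survival factor BAFF, was at -0.52 with an SE of 0.24, and Ccr9, the receptor for the gut chemokine Ccl25, at 0.45 with an SE of 0.45 (edgeR, adjusted p = 0.994 each). Madcam1, the vascular address for gut-homing lymphocytes, had 0 counts in all libraries.

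Markers of other cells were measured beside the immunoglobulin genes, and their part in the result was not tested. The 11 T cell genes summed to 96.4 to 218 CPM in KO and 120 to 352 CPM in WT, with 9 of 11 fold changes below 0 and a median of -0.38. The 9 macrophage and dendritic cell genes summed to 20.4 to 23.1 CPM in KO and 19.3 to 40.5 CPM in WT, with all 8 tested ones below 0 and a median of -0.51. The 6 stromal genes summed to 11.2 to 22.3 CPM in KO and 8.06 to 64.6 CPM in WT, with all 3 tested ones below 0. The 8 lymphoid follicle genes summed to 1.65 to 11.4 CPM in KO and 1.22 to 17.5 CPM in WT, with Ccl19 and Ccl21a at 0 in all libraries. The 5 epithelial genes summed to 6387 to 13897 CPM in KO and 6893 to 9642 CPM in WT, with 3 above 0 and 2 below. None of these genes was past the threshold, and each summed range overlapped between the groups. The highest sum lay in WT replicate 1 for T cell and stromal genes and in KO replicate 4 for epithelial genes. For macrophage and dendritic cell genes and for lymphoid follicle genes it lay in WT replicate 2. For summed immunoglobulin, WT replicate 1 was the lowest library and WT replicate 2 the highest. Trdc, the constant gene of the T cell receptor delta chain, did not overlap, with 2.05, 2.73, 2.06 and 1.25 CPM in KO against 4.52, 3.69, 4.84 and 3.76 CPM in WT (log2 fold change -1.05, edgeR adjusted p = 0.994). It is named after its value was seen, as are the T cell granzyme Gzma and the macrophage complement gene C1qc, at -0.88 and -1.14 (edgeR adjusted p = 0.994 each). These 3 had an unadjusted p under 0.05 and lay lower in KO, as did 0.832% of all tested genes. The values of KO and WT did not overlap, in either direction, for 1.53% of all tested genes. Cd8b1 and Trbc2 of the T cell list went the other way, at 0.57 and 0.18. Gzma was highest in WT replicate 1, at 162 CPM, the library with the lowest summed immunoglobulin.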

How the data were processed

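RNA of 8 crypt libraries was extracted with TRIzol and made into strand-marking libraries, per the labels' protocols. The submitters' processing notes name HISAT2 and DESeq2, with no version. The sources used here do not give the counting tool, whether it used strand, how it treated reads with several matches, or the annotation and build. Positions matched GENCODE M21 (GRCm38) for all 264 immunoglobulin genes. Per the file headers, the deposited table holds raw counts, which are whole numbers. The FPKM values of the deposited tables and the group means, a signal of normalized counts by the authors, entered no test. The authors' deposited log2 fold changes and p-values are quoted only where named.

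Counts were tested over all genes with edgeR 4.0.16 in R 4.3.3 (quasi-likelihood test, robust dispersion, TMM, filterByExpr, Benjamini-Hochberg adjustment, threshold 0.05), without a replicate block. The SE of a log2 fold change is its size divided by the root of the test's F. Immunoglobulin genes are those with the biotypes IG_C_gene, IG_V_gene, IG_J_gene and IG_D_gene; 4 IG_LV_gene rows at 0 and 158 V pseudogenes with 14 counts in all were left out. Sums, shares and V diversity were compared with exact two-sided permutation tests where a p is given, in scipy under Python. Intervals are Clopper-Pearson at 95% and, with floors of 3 counts, cover counting error only, since reads carry no molecular identifiers. Windows of 50 bases were compared between all M21 transcripts. The immunoglobulin genes, the marker lists and the tests were chosen with earlier results of these data known.

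The rule for named genes takes constant genes with a count, V genes among the 3 leading of their locus in a library, the 3 smallest p per direction, and per B-lineage list the 2 smallest p plus fixed markers. It also takes the 10 other genes most alike in pattern, and exceptions are stated where named; some genes it takes are not reported here. The alternatives tried were DESeq2 1.42.0, limma-voom (limma 3.58.1), RLE size factors, no filter, 5 CPM in 4 libraries, a replicate block, library sizes without immunoglobulin genes, other units and diversity measures, and leaving out each library. The edgeR fit and the diversity measures were tested on simulated data. Libraries of the same group always differed by more than sampling noise, with chi-square over degrees of freedom at 32.2 or above.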

Additional observations from a re-analysis of the deposited data

Results flagged for a closer look

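In groups of 4 libraries, 4 of the 54 sets of values examined held a library far from the other 3. The sets share libraries and some hold very few counts, so no chance rate is set beside that number. KO replicate 2 had an Igha share of heavy constant counts of 37.3%, against 61.4 to 66.3% in the other KO libraries. KO replicate 2 also had the only Tnfrsf17 count of its group, at 0.0649 CPM, against 0 in the others. A group with a single count is always flagged in this way. WT replicate 2 had 11.0 CPM of Cd79b, against 2.20 to 3.21 CPM in the other WT libraries, and 9.01 CPM of Ms4a1, against 0.978 to 2.10 CPM.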

How the results depend on the processing

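No setting brought an immunoglobulin gene past the threshold, and the smallest adjusted p of any was 0.571, in DESeq2. Without a filter on low counts, 194 were tested and 81.4% lay below 0, against 48.1% of all 28883 genes. Among all genes, calls numbered 3, with 5 without a filter, 24 in DESeq2 and 2 to 3 without single libraries. The summed log2 ratio kept its sign, at -1.65 to -0.47 without single libraries. The Igha share difference was -3.11 points and turned to 7.12 among class-switched counts, with -12.1 to 3.53 without single libraries: 3.503 without KO replicate 2, 2.57 without WT replicate 1 and 3.53 without WT replicate 4. The Igkc share difference stayed between -4.84 and -2.14. The effective V number difference of -7.00 turned to 0.124 rarefied to 112 counts and to 0.501 rarefied to 50. With single libraries left out, the difference in effective V number ranged from -16.1 without WT replicate 1 to 0.361 without WT replicate 2. Without WT replicate 2, Ighm turned to 0.42, Ighd to 0.85, Iglc1 to 0.066 and Ms4a1 to 0.62; Ighd turned to 0.029 without KO replicate 3 and Ccr9 to -0.066 without KO replicate 4. Without single libraries Ighm ranged from -1.66 to 0.42, Ighd from -1.22 to 0.85, Iglc1 from -1.16 to 0.066, Ms4a1 from -1.18 to 0.62 and Ccr9 from -0.066 to 0.81. The cause was not tested. The labels share replicate numbers. Over all tested genes, deviations of same-numbered libraries from their group means had r = 0.0745, 0.0345, -0.388 and -0.0871 (replicates 1 to 4). Such values cannot tell whether same-numbered libraries were handled together, and replicate 2 stood highest in each group for Ighm, Ighd and Ms4a1. With the replicate block, 2 genes were called among all genes and no immunoglobulin gene, and Igkc was at -0.90. The summed value was -0.89, but as a difference of mean log2 CPM. It is another measure than the log2 ratio of means, -1.32, so the gap between them is no effect of the block. The Igha share difference stayed at -3.11 (exact permutation p = 0.75), the Igkc share difference at -3.64 (exact permutation p = 0.25) and the V difference at -7.00 (exact permutation p = 0.5). Swaps within replicate numbers allow fewer arrangements than 70, so no p under 0.05 was possible. Depth limits V and J genes: 183 genes with a count failed the filter, and most V genes had few counts per library.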

Other observations

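The genes other than immunoglobulin genes whose log2 CPM went most closely with log2 summed immunoglobulin CPM over the 8 libraries were ranked among 14886 genes, as a description with no test, since points share library sizes and the rank rests on 8 values. The first 9 were Dnajb14, Mrpl15, Jchain, Ap1g1, Tmem50b, Akp3, Vti1a, Golph3 and Gfpt1, with r between 0.978 and 0.914. Jchain ranked 3 and, without WT replicate 2, 106 with r at 0.862. Akp3, an intestinal alkaline phosphatase, had 2.86, 3.44, 0.588 and 0.938 CPM in KO, against 0.0611, 65.4, 2.69 and 4.16 CPM in WT. Its level in WT replicate 2 was the highest of the 8 libraries and that in WT replicate 1 the lowest, the same 2 extremes as for summed immunoglobulin. Dnajb14, a J-domain co-chaperone of the endoplasmic reticulum, varied far less, with 26.3, 31.1, 26.8 and 29.1 CPM in KO against 25.6, 38.1, 31.4 and 32.2 CPM in WT. Among B cell genes, Ms4a1 ranked 89 and Cd79a 503, and the epithelial receptor Pigr ranked 7050. Without WT replicate 2 these ranks were 1859, 3476 and 12897.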
